A study of Danio rerio with 20 samples.

Results

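miR-738 and miR-739 are names annotated as fish microRNAs, and their probes are 2 of the 219 mature zebrafish microRNA probes on these arrays. A RefSeq gene symbol matched miR-738, and none matched miR-739. They were chosen by name from the probe identifiers dre-miR-738 and dre-miR-739, with their levels in mutant and wild-type fish already known from an earlier look at the same data. Those levels are therefore given below as a description, without a test. Tests are kept for differences that average mutant and wild type equally, or that compare one mutant's difference with the other's. These tests too were chosen with earlier results of the same data known, so their p-values may not be independent of that look.

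Small RNA was measured in whole zebrafish of the TL strain, raised on a standard shrimp diet, in 20 samples. The mutant genotypes were sapje and sapje-like, 2 lines with mutations in dystrophin, the protein lost in Duchenne muscular dystrophy. Wild-type fish accompanied each line, called SW in the sapje cohort and SLW in the sapje-like cohort. All 4 genotypes were sampled at an age of 30 days post fertilisation (dpf) in 3 samples each and at 5 dpf in 2 each, from 10 fish per cohort. The labels give neither the alleles nor the zygosity, and they do not say whether a group's samples were pooled from different fish, so errors and p-values measure only the spread between these samples, which may be technical. In whole fish, fewer cells of a type and less RNA per cell cannot be told apart.

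A microRNA is a short RNA that guides an Argonaute protein to messenger RNAs, whose translation and stability it lowers. Pairing rests mainly on the seed, bases 2 to 8 counted from the 5′ end, so microRNAs with the same seed tend to share targets and are grouped into families. No role in muscle or another tissue is stated here for miR-738 or miR-739. A probe detects any RNA that carries its target sequence. Whether the 2 members' targets occur in ribosomal or other longer RNA was not tested here, nor whether their signal came from a microRNA. The sequences are those the deposited scanner files give for each probe's target, 5′ to 3′, and capitals mark the seed. miR-146b and miR-122 are shown because their patterns were closest to that of miR-739, and miR-731 because it is a neighbour in numbering that also rose with age.
miR-738: gCUACGGCccgcgucgggaccuc
miR-739: aGGCCGAAguggagaaggguu
miR-146b: uGAGAACUgaauuccaagggug
miR-122: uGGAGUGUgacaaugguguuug
miR-731: aAUGACACguuuucucccggaucg

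The miR-738 target is 23 bases long and 78.3% G and C, the highest share of all 219 mature probes, whose median is 43.5%. The miR-739 target is 21 bases long and 57.1% G and C, the 8th highest share. Neither seed occurs in another mature probe on the array, so neither member has a family relative here. The longest stretch that miR-738 shares with any other probe is 7 bases, with miR-193b, and for miR-739 it is 7 bases, with miR-17a*. The members share at most 4 bases in a row with each other. Of the other sequences shown, the seed of miR-146b is shared with miR-146a.

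Each probe was printed in 12 spots, and each sample was 1 dye channel, Cy3 or Cy5, of a 2-colour array. Values below are normalised log2 intensity, on which a step of 1 is a doubling. For a list of markers, the sum given is the log2 of their normalised intensities added on the linear scale. It takes in every listed probe, tested or not, and the brightest probe weighs most. Both members were above background in 20 of 20 samples. The coefficient of variation of the 12 spots was 2.72% to 11.9% per sample for miR-738 (median 6.66%) and 2.32% to 11.1% for miR-739 (median 5.98%). It was taken on the scanner mean with the background left in, so it understates the spread of signals near the background. Across the series 105 to 173 probes per sample were above background, and 167 entered the tests.

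One library stood apart for miR-739, the wild type SLW replicate 1 at 5 dpf. Its miR-739 spots read 24514 to 28055 on the scanner scale, with a mean of 26460, against a mean of 810 in wild type SLW replicate 2 of the same age. In the authors' deposited table the same pair of libraries read 18989 and 196. After normalisation the difference between these replicates, 5.68 in log2, was the largest among the 167 probes, and the next largest was 3.17 for miR-133c, a muscle microRNA. The 48 spots around the miR-739 spots had a median of 43.5 against 47.3 for empty spots, and the brightest of them, of a probe that is not a microRNA, read 49798, above every miR-739 spot. In this library miR-738, which lies beside miR-739 on the array, read 8.09, between its levels in the other wild types at 5 dpf.

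The same library was low in the 5S ribosomal RNA control probes. Control b1 read 944 there, against 5032 to 37569 in the other 19 samples. Controls b2, b3 and b4 read 5051, 2813 and 212, against lowest values elsewhere of 26309, 14199 and 1184. The part of these controls in the miR-739 level of that library was not tested. Results that rest on it are given with and without it.

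**Figure D1:**
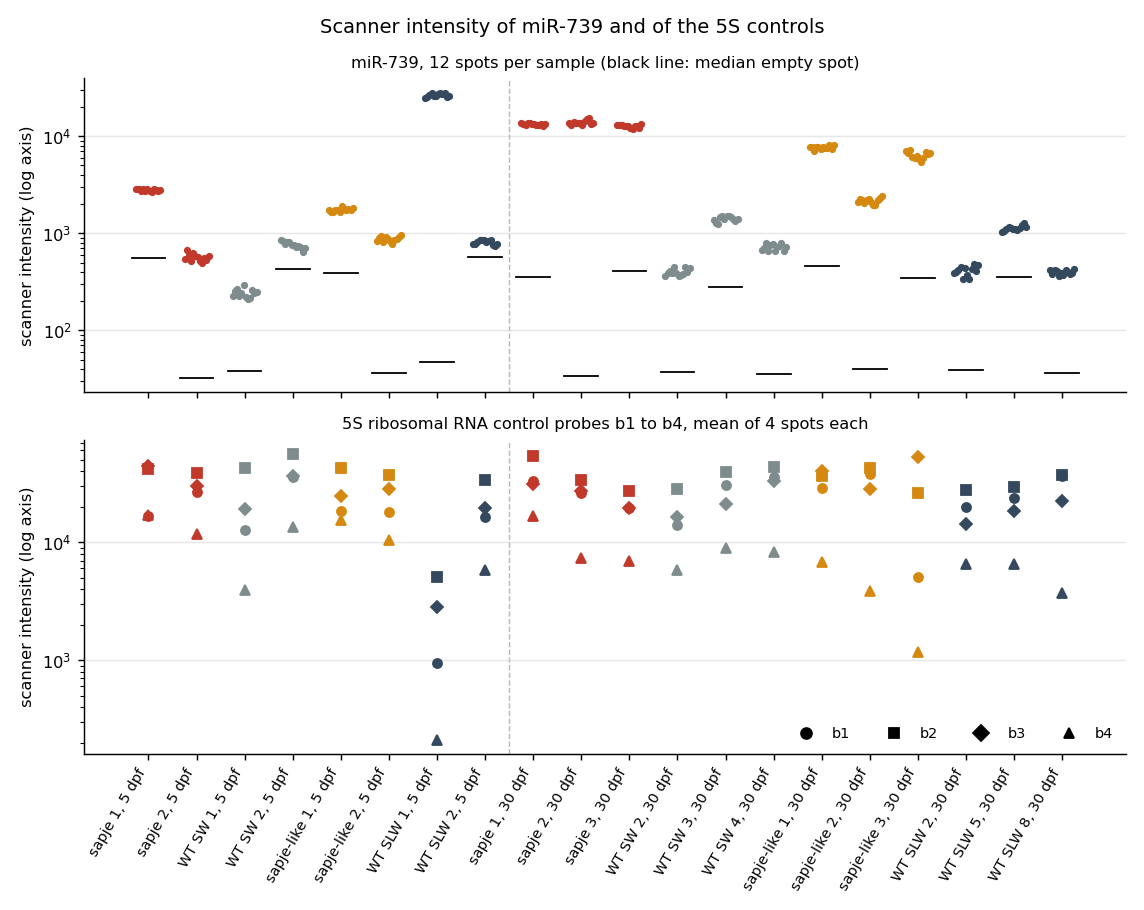
Upper panel, scanner intensity (log axis) of the 12 miR-739 spots of each sample, with a black line at the median empty spot; lower panel, scanner intensity (log axis) of the 5S control probes b1 to b4, each the mean of 4 spots. Wild type SLW replicate 1 at 5 dpf had the brightest miR-739 spots of the 20 samples, 24514 to 28055, and the lowest value of each of the controls b1 to b4.

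miR-739 was far higher in both mutants at 30 dpf than in their wild types. It read 13.94, 13.43 and 13.43 in the 3 sapje samples, against 8.73, 9.09 and 9.74 in wild type SW. In the other cohort it read 12.67, 11.96 and 13.22 in sapje-like, against 9.34, 9.34 and 9.64 in wild type SLW. Each of the 6 mutant samples, the lowest at 11.96, lay above each of the 6 wild-type samples, the highest at 9.74. The same complete separation held for 2.4% of the probes tested (4 of 167), and since the choice of miR-739 used this contrast, nothing is read from that share.

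Group means of miR-739 at 30 dpf were 13.60 ± 0.29 in sapje and 9.19 ± 0.51 in wild type SW (SD, n = 3 each). They were 12.62 ± 0.63 in sapje-like, against 9.44 ± 0.18 in wild type SLW (SD, n = 3 each). The fitted difference with the dye allowed for was 4.60 ± 0.92 for sapje (SE, 24.2-fold) and 3.36 ± 0.92 for sapje-like (SE, 10.3-fold). Over both cohorts it was 3.98 ± 0.66, or 15.8-fold. Both the standard errors and the dye term carry the divergent 5 dpf library, for the dye coefficient of miR-739 (Cy5 minus Cy3) was 0.56, the highest of the probes tested, and -0.056 without it. Without that library the differences were 4.39 ± 0.33 for sapje, 3.16 ± 0.33 for sapje-like and 3.78 ± 0.24 over both (SE).

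The size of the gap shows most directly on the linear scale of the authors' deposited table. There miR-739 read 11783, 11322 and 10313 in sapje, against 350.5, 505 and 630.0 in wild type SW at 30 dpf. It read 5656, 4442 and 9644 in sapje-like, against 538, 607 and 631 in wild type SLW. All 6 mutant values were above all 6 wild-type values in that table too.

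At 30 dpf no mutant sample fell below a wild type. The direction of this difference therefore had to be the same in both dyes and on every inferred array of that age. Only its size is described here. Among Cy3 samples alone the joint difference at 30 dpf was 4.10, and among Cy5 samples alone 3.34. The labels do not state which samples shared an array, so this was inferred from the pattern of spot residuals, which gave 10 arrays, each with a mutant in one dye and its own wild type of equal age in the other. On the 6 arrays of 30 dpf the mutant channel exceeded its partner by 2.63 to 5.21, on all 6 of them. The 5S controls b1 to b4, averaged above the empty spots, read 17886 to 33591 in the 6 mutant samples of that age. They read 16181 to 30068 in the 6 wild-type samples, so the ranges overlapped. The average hides sapje-like replicate 3, with the lowest b1, b2 and b4 of that age (5032, 26309 and 1184) and the highest b3 (53022). In that library 107 probes were above background, and miR-739 read 13.22, the highest of sapje-like. The part of these controls in its miR-739 level was not tested.

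At 5 dpf miR-739 showed no such gap. It read 9.91 and 9.80 in sapje, against 9.68 and 8.99 in wild type SW. It read 9.80 and 10.00 in sapje-like, against 13.94 and 8.25 in wild type SLW, where 13.94 is the divergent replicate 1. The 4 mutant samples lay within 9.80 to 10.00, and 3 of the 4 wild-type samples lay below them. The joint fitted difference was -0.33 ± 0.79 with all samples, and 1.10 without that replicate.

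miR-738 showed its gap between mutants and wild types at the younger age. With all samples kept it separated them there, as miR-739 did only without its divergent library. At 5 dpf miR-738 read 8.94 and 9.21 in sapje, against 8.54 and 7.93 in wild type SW. It read 8.73 and 9.13 in sapje-like, against 8.09 and 7.40 in wild type SLW. All 4 mutant samples lay above all 4 wild-type samples, a separation found for 3.59% of the probes tested (6 of 167), from which nothing is read because this contrast too was known when the members were chosen.

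Group means of miR-738 at 5 dpf were 9.08 ± 0.19 in sapje and 8.24 ± 0.44 in wild type SW (SD, n = 2 each). They were 8.93 ± 0.29 in sapje-like, against 7.75 ± 0.48 in wild type SLW (SD, n = 2 each). The fitted difference was 0.84 ± 0.45 for sapje, 1.18 ± 0.45 for sapje-like and 1.01 ± 0.32 over both (SE, 2.02-fold). Array by array, the mutant exceeded its partner by 0.40 to 1.73 on all 4 arrays of 5 dpf, a direction fixed by the complete separation above. The joint difference was 1.17 among Cy3 samples alone and 0.86 among Cy5 samples alone. Some wild-type signals lay near the background. On the scanner scale, above the median empty spot, miR-738 read 48.7 and 130 in wild type SW (replicates 1 and 2). It read 166 and 143 in wild type SLW, 928 and 304 in sapje, and 652 and 411 in sapje-like. In the Cy3 wild types the median empty spot itself read 430 (SW) and 572 (SLW). How far this sets the size of the gap was not tested. The 4 gut and liver markers (miR-122, miR-192, miR-194a and miR-194b) summed to 14.01 to 14.06 in sapje, against 11.79 to 12.64 in wild type SW at this age. In sapje-like they summed to 12.89 to 12.92, against 12.35 to 13.19 in wild type SLW. Without overlap, sapje also lay above wild type SW in the striated muscle and nervous system lists. It lay below wild type SW, again without overlap, in the lens and skin epithelium and immune lists. Sapje-like lay below wild type SLW in the striated muscle and pancreas lists, and above it in the red blood cell list, without overlap. In the nervous system list these groups met at 12.33, with sapje-like the lower. With 2 samples in each group, a small difference is enough for such a separation. The share of all probes that separated in this way is not given here, so nothing is read from these lists. Their part in the miR-738 levels was not tested.

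At 30 dpf the levels of miR-738 in mutants and wild types overlapped. It read 10.86, 10.81 and 10.64 in sapje, against 9.68, 10.27 and 10.27 in wild type SW. It read 11.39, 9.74 and 10.07 in sapje-like, against 10.64, 10.53 and 10.00 in wild type SLW. The 3 sapje samples lay above the 3 wild type SW samples, as they did for 12% of the probes tested (20 of 167), whereas sapje-like held both the highest value of the age and one of the lowest. The fitted difference was 0.70 ± 0.38 for sapje, 0.01 ± 0.38 for sapje-like and 0.36 ± 0.27 over both (SE). The sapje-like value turned to -0.47 without sapje-like replicate 1.

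**Figure D2:**
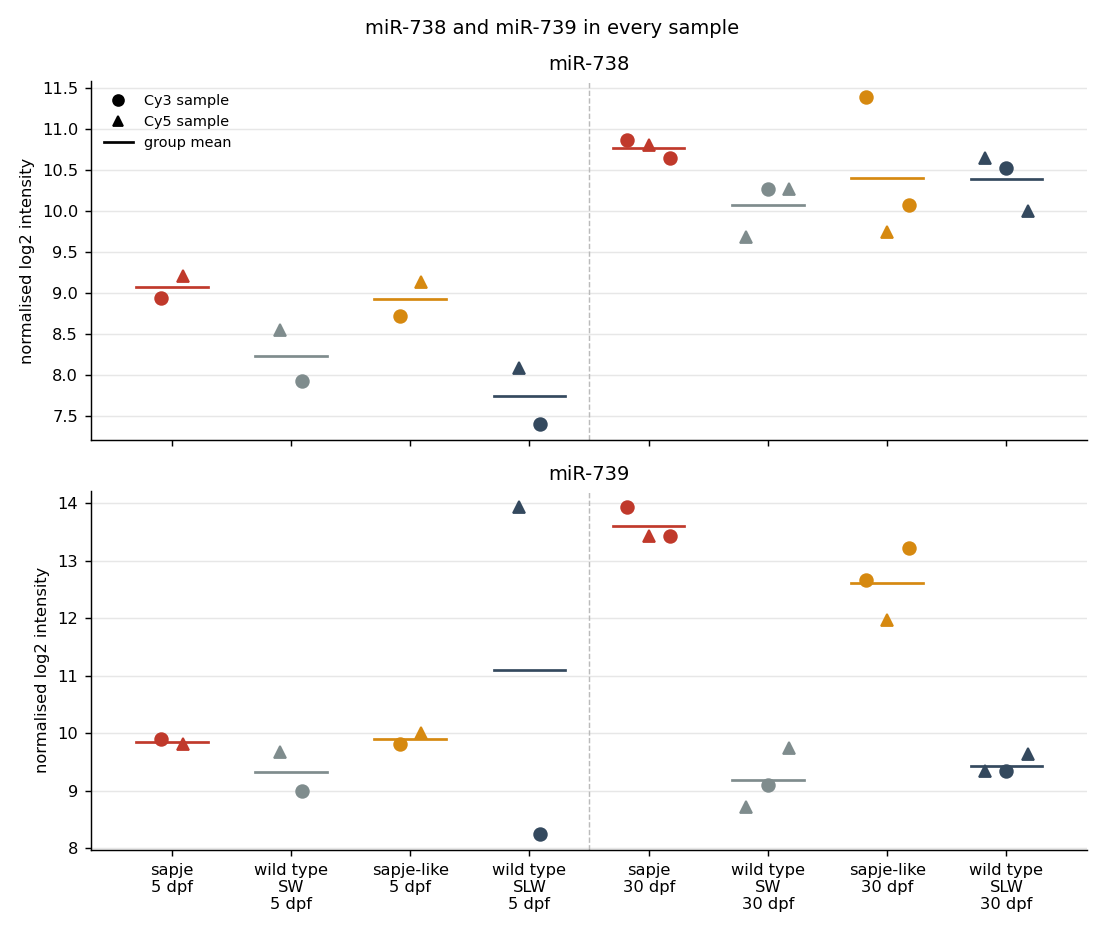
Normalised log2 intensity of miR-738 (upper panel) and miR-739 (lower panel) in each of the 20 samples, by genotype and age; circles are Cy3 samples, triangles Cy5 samples, and bars group means (n = 2 at 5 dpf, n = 3 at 30 dpf). miR-738 at 30 dpf lies above all its 5 dpf values, and miR-739 is at 11.96 to 13.94 in the mutants at 30 dpf and at most 9.74 in their wild types.

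**Figure D3:**
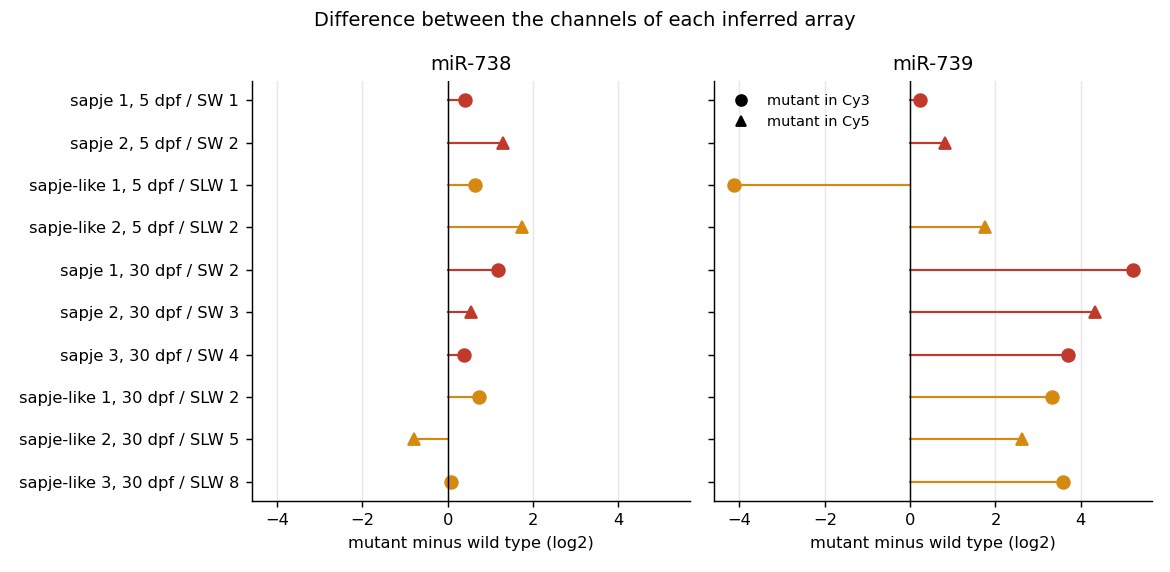
Difference in normalised log2 intensity between the mutant and the wild-type channel of each of the 10 inferred arrays, for miR-738 (left) and miR-739 (right), with the age and the replicate numbers named beside each array; circles have the mutant in Cy3 and triangles in Cy5. The mutant channel was the higher on 9 of 10 arrays for each member, the exceptions being -0.79 for miR-738 on an array of 30 dpf and -4.13 for miR-739 on the array that holds wild type SLW replicate 1.

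Ordered by group mean, miR-738 fell into an older and a younger set. The order ran from sapje at 30 dpf (10.77) through sapje-like (10.40), wild type SLW (10.39) and wild type SW (10.07) at the same age, then sapje (9.08), sapje-like (8.93), wild type SW (8.24) and wild type SLW (7.75) at 5 dpf. The neighbours within the 30 dpf set overlapped in their samples and differed by less than the larger of their SDs, and so did sapje and sapje-like at 5 dpf. The gap of 0.99 between wild type SW at 30 dpf and sapje at 5 dpf was larger than both SDs, with no overlap. So was the gap of 0.69 between sapje-like and wild type SW at 5 dpf. The 2 wild types at 5 dpf overlapped, with a gap of 0.49. With 2 or 3 samples in each group, a small difference can be enough for a gap without overlap. The share of all probes with such gaps is not given here, so nothing is read from them.

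For miR-739 the order placed both mutants at 30 dpf on top. They were followed by wild type SLW at 5 dpf (11.10 ± 4.02, SD, n = 2), whose mean lies between its replicates of 13.94 and 8.25 and describes neither. The other 5 groups had means from 9.90 in sapje-like at 5 dpf to 9.19 in wild type SW at 30 dpf. The gap of 0.98 between sapje and sapje-like at 30 dpf exceeded both SDs without overlap. Among the lower groups, the gap of 0.42 between sapje at 5 dpf and wild type SLW at 30 dpf exceeded both SDs, and the remaining neighbours overlapped. For these gaps too the share of all probes is not given here, so nothing is read from them.

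The difference between the ages, averaged over the 4 genotypes with equal weight, was the comparison in which miR-738 passed its test. In the 12 samples at 30 dpf miR-738 ranged from 9.68 to 11.39 (median 10.40), against 7.40 to 9.21 (median 8.63) in the 8 samples at 5 dpf. All 12 older samples lay above all 8 younger ones, which was so for 12% of the probes tested (20 of 167). The difference was 1.91 ± 0.21 (SE, 95% confidence interval 1.47 to 2.35, 3.76-fold, limma adjusted p = 1.80e-06). Much of the array differed between the ages, with 60.5% of the probes tested past the threshold of 0.05 (101 of 167) and 30.5% past it with a higher level at 30 dpf (51 probes, against 50 with a lower level). Scaling each sample to the median of the tested probes moved that split to 32 higher and 98 lower, with the median of all probes at -0.52, and scaling to the 75th percentile moved it to 64 higher and 29 lower, with that median at 0.16. miR-738 rose under both, by 1.43 and by 2.11.

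The rise of miR-738 with age was present in both mutants and wild types. It was 1.58 ± 0.29 in the mutants and 2.24 ± 0.29 in the wild types (SE). It was 2.32 among Cy3 samples and 1.47 among Cy5 samples, each fitted alone. Such a fit keeps 1 sample in each group at 5 dpf, so it measures no spread at that age and its p-value is not given. Each inferred array held fish of 1 age, so age was compared between arrays and cannot be told apart from a batch of arrays. With the array as a random block, which does not remove such a batch, the difference was 1.91 (limma adjusted p = 3.60e-06). Of 7 lists of tissue markers, 3 also did not overlap between the ages in the log2 of their summed intensity. The immune list (3 of 5 markers tested) summed to 9.87 to 10.96 at 30 dpf and 9.12 to 9.74 at 5 dpf, and the red blood cell list (1 of 2 tested) to 9.43 to 11.23 and 8.12 to 9.15. The nervous system list (4 of 4 tested) was the lower at 30 dpf, at 9.75 to 10.59 against 11.45 to 13.25. The other 4 lists overlapped between the ages, with gut and liver at 9.25 to 15.33 and 11.79 to 14.06, pancreas at 9.83 to 11.67 and 10.03 to 10.29, striated muscle at 14.84 to 16.00 and 14.99 to 15.87, and lens and skin epithelium at 13.37 to 14.78 and 14.71 to 15.79 (30 dpf and 5 dpf, in that order). Among single probes, 12% of those tested (20 of 167) were higher at 30 dpf without overlap, and the share lower without overlap is not given here. The part of these lists in the rise of miR-738 was not tested.

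miR-739 missed the threshold in the same comparison. In the 12 samples at 30 dpf it ranged from 8.73 to 13.94 (median 10.85), against 8.25 to 13.94 (median 9.80) in the 8 samples at 5 dpf. The average difference was 1.16 ± 0.51 (SE, 95% confidence interval 0.07 to 2.26, limma adjusted p = 0.0616, unadjusted p = 0.0387). It averaged 3.32 ± 0.72 in the mutants and -1.0 ± 0.72 in the wild types, which had opposite signs. The average over genotypes thus carries the high mutant levels at 30 dpf, which were known when the members were chosen. With or without any library, it is not read as a change with age shared by the genotypes. Without wild type SLW replicate 1 at 5 dpf the average was 1.88 ± 0.20 and the change in wild types 0.54. That fit keeps 1 wild type SLW sample at 5 dpf, so its p-value is not given. Without sapje-like replicate 2 at 30 dpf the average was 1.31 and passed (limma adjusted p = 0.0410).

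Neither member was past the threshold between the cohorts at 5 dpf. miR-738 ranged from 7.40 to 9.13 in the 4 samples of the sapje-like cohort (sapje-like and wild type SLW) and from 7.93 to 9.21 in the 4 of the sapje cohort, a difference of -0.32 ± 0.32 (SE, 95% confidence interval -1.01 to 0.37, limma adjusted p = 0.710). miR-739 ranged from 8.25 to 13.94 in the sapje-like cohort and from 8.99 to 9.91 in the sapje cohort, a difference of 0.90 ± 0.79 (SE, 95% confidence interval -0.79 to 2.60, adjusted p = 0.635). That value hung on the 2 discordant wild type SLW replicates, being -0.53 when replicate 1 was left out and 2.34 when replicate 2 was. Either fit keeps 1 wild type SLW sample at this age, so its p-value would not measure their discordance and is not given. In this comparison 4.19% of the probes tested were past the threshold (7 of 167, 6 of them higher and 1 lower). The split was 5 and 0 under cyclic loess, 3 and 1 under median scaling, and 3 and 0 under 75th percentile scaling.

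Nor was either member past the threshold between the cohorts at 30 dpf. miR-738 ranged from 9.74 to 11.39 in the 6 samples of the sapje-like cohort and from 9.68 to 10.86 in the 6 of the sapje cohort, a difference of -0.03 ± 0.26 (SE, 95% confidence interval -0.59 to 0.53, limma adjusted p = 0.979). miR-739 ranged from 9.34 to 13.22 in the sapje-like cohort and from 8.73 to 13.94 in the sapje cohort, a difference of -0.37 ± 0.64 (SE, 95% confidence interval -1.75 to 1.02, limma adjusted p = 0.942). The width of the miR-739 interval rests on 1 library, for without wild type SLW replicate 1 at 5 dpf the difference was -0.37 ± 0.23 (SE, adjusted p = 0.513). In this comparison 1.2% of the probes tested were past the threshold (2 of 167, 0 higher and 2 lower), and the split was 38 higher and 4 lower under median scaling and 35 and 5 under 75th percentile scaling, which moved the median of all probes to 0.18 and 0.14. Neither scaling moved a member past the threshold, the lowest adjusted p being 0.711 for miR-738 and 0.885 for miR-739.

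Whether the 2 mutants differed in their effect was tested as the sapje-like difference minus the sapje difference. For miR-739 at 30 dpf the difference in sapje-like was the smaller by 1.23 ± 1.28 in log2 (SE, interval of the signed value -4.00 to 1.53, limma adjusted p = 0.876), and without wild type SLW replicate 1 at 5 dpf the signed value was -1.23 ± 0.46 (SE, adjusted p = 0.571). For miR-738 at 30 dpf the value was -0.69 ± 0.52 (SE, interval -1.82 to 0.43, adjusted p = 0.857). At this age 0% of the probes tested were past the threshold (0 of 167, and 9 at an unadjusted p under 0.05 in limma). The fit thus called no probe whose difference from wild type was unlike in the mutants. The mutants were not tested against each other directly, and the gaps between their levels given above are a description. At 5 dpf the value was 0.34 ± 0.64 for miR-738 (SE, interval -1.04 to 1.72, adjusted p = 0.996) and -1.71 ± 1.57 for miR-739 (SE, interval -5.10 to 1.67, adjusted p = 0.996), with 0.599% of the probes past the threshold (1 of 167, a lower one, and 0 under cyclic loess, median and 75th percentile scaling). For miR-739 it was 1.15 when wild type SLW replicate 1 was left out and -4.58 when replicate 2 was. Either fit keeps 1 sample of that group, so no p-value is given.

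**Figure D4:**
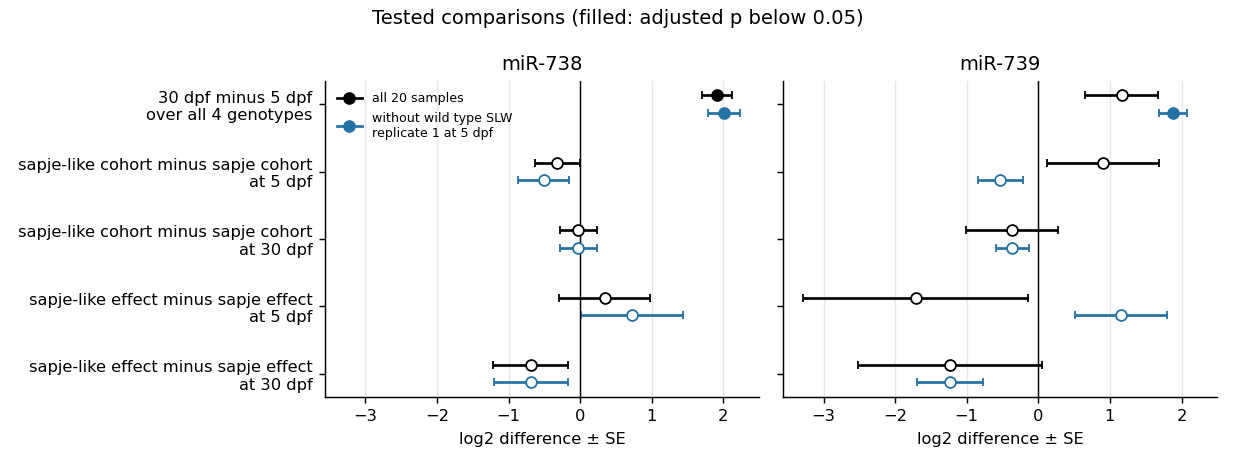
Log2 difference with its standard error for the 5 tested comparisons of miR-738 (left) and miR-739 (right); black points use all 20 samples, blue points leave out wild type SLW replicate 1 at 5 dpf, and filled points have a limma adjusted p below 0.05. With all 20 samples miR-738 passed for age, at 1.91, and miR-739 did not, at 1.16. The age value of miR-739 was 1.88 without that library. It carries the high mutant levels at 30 dpf, which were known when the members were chosen. The fits of the blue points keep 1 wild type SLW sample at 5 dpf, so the fill of those points is not read.

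The probes most like miR-739 over the 20 samples, by Pearson correlation of log2 values with the dye effect removed, were miR-122, the main microRNA of liver, at 0.69 and miR-146b, one of a pair of microRNAs induced in inflammation, at 0.65. The samples share arrays and dyes, so these values describe the pattern and carry no test. They were followed by miR-16b (0.58) and miR-16c (0.53), of a family known for restraining the cell cycle, and by miR-375 (0.53), known from the endocrine pancreas. Over the 12 samples at 30 dpf the correlation was 0.88 for miR-146b and 0.77 for miR-122, and without wild type SLW replicate 1 at 5 dpf it was 0.86 and 0.77. Once each sample's value was taken as its deviation from its group mean, over all 20 samples, it was -0.030 for miR-146b and 0.019 for miR-122. On that measure miR-16b stood at 0.50, miR-16c at 0.55 and miR-375 at 0.46. The dye removed from these values is the fitted one, which moves with wild type SLW replicate 1 at 5 dpf. The deviations of miR-739 also weigh mainly on that library and its partner, wild type SLW replicate 2. Replicate 1 minus replicate 2 was 5.68 in miR-739, 1.14 in miR-16b, 1.59 in miR-16c and 1.13 in miR-375. It was -0.26 in miR-146b and -0.22 in miR-122. Correlations of the deviations without replicate 1 are not given here. The lowest correlations were with miR-210, a microRNA induced by low oxygen (-0.79), and with miR-17a (-0.73) and miR-18a (-0.72), of a cluster tied to proliferation.

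miR-146b shared the separation of mutants from wild types at 30 dpf, which was found for 2.4% of the probes tested (4 of 167). The probe was picked by its likeness to miR-739 over these samples, so nothing is read from this. Its lowest mutant sample, 9.68, lay close to its highest wild-type sample, 9.59. miR-146b read 10.81, 10.70 and 11.52 in sapje, against 8.65, 9.17 and 9.21 in wild type SW. It read 9.68, 10.64 and 11.06 in sapje-like, against 8.15, 8.29 and 9.59 in wild type SLW. The pattern parted from that of miR-739 in wild type SLW replicate 1 at 5 dpf, where miR-146b read 7.18, its lowest level in the 20 samples.

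miR-122 followed miR-739 less closely at 30 dpf. It read 12.80, 11.10 and 9.64 in sapje, against 7.34, 6.94 and 6.60 in wild type SW. It read 12.94, 13.08 and 13.64 in sapje-like, against 6.64, 6.97 and 12.09 in wild type SLW. It was not above background in wild type SW replicate 4 and wild type SLW replicate 2, while miR-739 was above background in both. The 12.09 was wild type SLW replicate 8, in which miR-739 read 9.64, within its range in the other wild types of that age.

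The gut and liver markers as a list, all 4 of them tested, moved with the same groups at 30 dpf. The log2 of their summed intensity was 11.70 to 15.03 in sapje, with 4 of 4 above background in each sample, against 9.25 to 9.48 in wild type SW, with 2 to 3 of 4. It was 14.74 to 15.33 in sapje-like, with 3 to 4 of 4, against 9.26 to 15.16 in wild type SLW, with 2 to 4 of 4. The sums of mutants and wild types overlapped through wild type SLW replicate 8, whereas the levels of miR-739 did not. Within sapje the sums were 15.03, 12.48 and 11.70 while miR-739 read 13.94, 13.43 and 13.43. miR-194b was not above background in the 3 wild type SW samples, wild type SLW replicate 2 and sapje-like replicate 3. The 6 striated muscle markers summed to 14.84 to 15.49 in sapje, against 15.78 to 15.85 in wild type SW, and to 15.19 to 15.50 in sapje-like, against 15.02 to 16.00 in wild type SLW, with at least 5 of 6 above background in each sample. The red blood cell list summed to 9.44 to 10.31 in sapje, against 10.54 to 11.23 in wild type SW, and to 9.43 to 10.61 in sapje-like, against 10.37 to 11.16 in wild type SLW, with 1 of 2 above background in each sample. The lens and skin epithelium list, 4 of 4 above background, summed to 13.92 to 14.25 in sapje, against 14.30 to 14.73 in wild type SW, and to 13.74 to 13.85 in sapje-like, against 13.37 to 14.78 in wild type SLW. The pancreas list summed to 10.06 to 11.12 in sapje, against 10.10 to 10.43 in wild type SW, and to 11.05 to 11.67 in sapje-like, against 9.83 to 11.33 in wild type SLW. Red blood cell, lens and skin, and striated muscle sums did not overlap between sapje and wild type SW, and overlapped between sapje-like and wild type SLW. Immune sums overlapped in both cohorts, at 10.37 to 10.96 in sapje against 10.28 to 10.42 in wild type SW. They were 10.01 to 10.50 in sapje-like against 9.87 to 10.90 in wild type SLW. In these 2 groups 2 to 3 immune probes were above background, and 3 in each sample of sapje and wild type SW. Nervous system sums overlapped in the sapje cohort, at 9.86 to 10.41 in sapje against 9.75 to 10.59. In sapje-like they were 9.77 to 10.063, just below the 10.064 to 10.30 of wild type SLW. Only 1 to 4 of 4 nervous system probes were above background in sapje-like, against 4 of 4 in the other groups of this age. With 3 samples in each group such separations were not rare among single probes. All 3 sapje samples lay above all 3 wild type SW samples for 12% of those tested (20 of 167). The share in the other direction, and those in the other cohort, are not given here, so nothing is read from the separations. The part of these tissues in the miR-739 levels was not tested further.

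**Figure D5:**
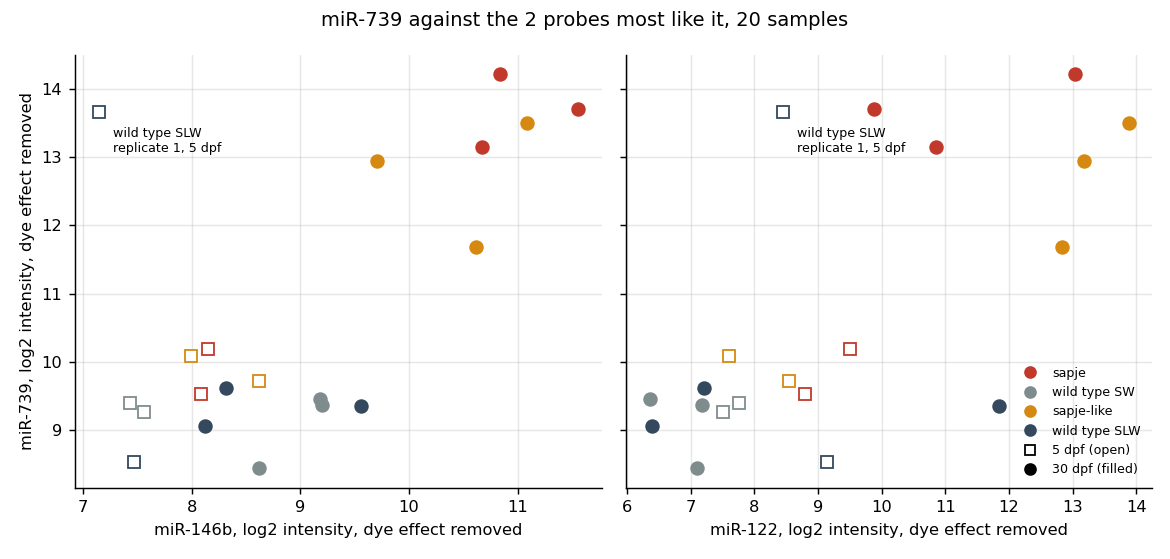
miR-739 (vertical axis) against miR-146b (left) and miR-122 (right) in the 20 samples, in log2 intensity with the dye effect removed; colours give the genotype, open squares are 5 dpf and filled circles 30 dpf. In the left panel the 6 mutant samples at 30 dpf lie at the upper right, and in both panels wild type SLW replicate 1 at 5 dpf is high in miR-739 alone. In the right panel the mutants spread from 9.88 to 13.88 in miR-122. Wild type SLW replicate 8, high in miR-122 alone, lies among them on that axis, at 11.85.

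The probes most like miR-738 over the 20 samples were miR-23a (0.84), let-7i (0.84), miR-223 (0.80), miR-15a (0.79) and miR-146a (0.79). miR-223 is best known from myeloid blood cells, and let-7 microRNAs accumulate as animals mature. These values span both ages, and over the 12 samples at 30 dpf alone they were -0.24, -0.04, 0.18, -0.59 and 0.15. The lowest correlations were with miR-430b (-0.88) and miR-430c (-0.86), of the family that clears maternal messages in the early zebrafish embryo, and with miR-9* (-0.85), a strand of a nervous system microRNA. Over the 12 samples at 30 dpf these were 0.016, -0.51 and 0.15. miR-738 and miR-739 correlated at 0.40 with each other.

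Among the zebrafish microRNAs named miR-722 to miR-740 on the array, 21 probes in all, 10 entered the tests and 11 stayed too dim. Besides miR-738, the list had 1 probe that rose with age, miR-731, which is made from a fish cluster with miR-462. It rose by 1.88 ± 0.21 (SE, limma adjusted p = 1.98e-06). Those that fell with age were miR-727, with -0.70 ± 0.10 (SE, adjusted p = 3.38e-05), miR-730, with -0.70 ± 0.10 (SE, adjusted p = 2.60e-05), and miR-733, with -0.44 ± 0.17 (SE, adjusted p = 0.0334). The list's median difference was -0.09, beside 0.02 over all probes tested, with 2 higher, 3 lower and 5 not past the threshold. Under median scaling 2 of the list were higher and 7 lower, and under 75th percentile scaling 3 were higher and 0 lower, as the split over all 167 probes also moved, to 32 and 98 and to 64 and 29. In the other 4 comparisons 0 of the 10 passed in this limma fit, and median and 75th percentile scaling each brought 4 past the threshold between the cohorts at 30 dpf, where they brought 42 and 40 of all 167 probes past it.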

How the data were processed

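Per the labels' protocols, small RNA was size-selected, tailed with poly(A), tagged and stained with Cy3 or Cy5 by a service provider (LC Sciences). The deposited scanner files hold the mean intensity of each of 3968 spots in 1 channel, with no background removed, and name 1032 empty spots. The image software is not given in the sources used here. The deposited value table holds the authors' processed intensity per probe on a linear scale. How the authors removed background and scaled it stays unknown, and its column medians were 95.3 to 144. Against the values computed here its log2 values gave correlations of 0.991 to 0.998 within samples, which settles its direction, and it served as an alternative, as log2(value + 50).

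Background was corrected by normexp (offset 50), and log2 values were averaged over 12 spots and quantile normalized over 219 mature probes, so equal values in different samples mean equal ranks. A probe counted as above background when its mean exceeded the empty spots' median by over 3 standard deviations (scaled median absolute deviation). Tests took the 167 probes, 15 of them star strands, that passed this in 2 or more samples of at least 1 group. Median empty spots lay at 282 to 572 (Cy3) and 32.4 to 47.3 (Cy5). The number of arrays limits the precision.

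The model, fitted by lmFit and eBayes of limma 3.58.1 under R 4.3.3, had 8 groups and the dye, leaving 11 residual degrees of freedom beside a prior of 2.48. Tests were two-sided, with Benjamini-Hochberg adjustment of the p-values across the 167 probes of a comparison and a threshold of 0.05. The fit was run on 20 simulated data sets, with 10 probes each raised by 1, 2 and 3 at 30 dpf. It recovered 99.5%, 95.5% and 99.5% of them, with 1.4 false calls per set. The simulated noise was independent and normal, with no dye or array effect and no divergent library. It therefore did not test the miR-739 errors. Arrays were inferred from residuals of 432 spots of 36 bright probes: in 20 of 20 cases the best match was mutual and of the other dye, with correlations of 0.423 to 0.854. Unpaired samples of opposite dye reached 0.610, and with only the probes over 500 or over 1000 above the empty spots 18 of 20 samples had a mutual match.

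The members, lists and tests were chosen with earlier results of these data known. Probes named were the members, the 5 with the highest and 3 with the lowest correlation to each, those from miR-722 to miR-740 past the threshold, and markers that moved with a result. miR-133c and the 5S controls were chosen after their values were seen. The marker lists compared were gut and liver, pancreas, striated muscle, nervous system, red blood cell, lens and skin epithelium, and immune. Alternatives were other background corrections, normalizations, spot summaries, filters, blocks and single dyes, and each sample left out in turn. The correlations without 1 divergent library were added after seeing the data. Figures used Python 3.11.15 and matplotlib 3.10.9.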

Additional observations from a re-analysis of the deposited data

How the results depend on the processing

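The rise of miR-738 with age kept its direction under all 35 alternatives run, at 1.43 to 2.32. Some of these, such as the single dyes, keep 1 sample in a group, so no range of p-values is given. The joint difference of miR-738 between mutants and wild types at 5 dpf stayed at 0.82 to 1.2 over 36. The joint difference of miR-739 at 30 dpf stayed above 0 throughout, at 3.34 (Cy5 samples alone) to 4.37. In all of these comparisons the higher samples lay wholly above the lower ones. Leaving out a sample or fitting 1 dye therefore had little room to turn a sign, and nothing is read from its constancy. The age difference of miR-739 passed under 75th percentile scaling (1.24, limma adjusted p = 0.0374). It was 2.02 in Cy3 samples alone and 0.45 to 1.88 with 1 sample left out. Cy3 samples alone, which lack wild type SLW replicate 1 at 5 dpf, turned the sign for miR-739 of the cohort difference at 5 dpf (-0.42), the difference of effects at 5 dpf (0.63), the joint and the sapje-like differences from wild type at 5 dpf (1.23 and 1.55) and the age change in wild types (0.59). With 1 sample left out these 5 ranged from -0.53 to 2.34, from -4.58 to 1.15, from -1.77 to 1.10, from -4.06 to 1.68 and from -2.33 to 0.54, and the extremes came from leaving out wild type SLW replicate 1 or 2 at 5 dpf; where 1 wild type SLW sample remained, it was assumed to vary like the other groups.

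Values of miR-738 near 0 changed sign with the cause not tested. The cohort difference at 30 dpf was 0.11 in Cy3 samples and -0.29 to 0.17 with 1 sample left out. The difference of effects at 5 dpf was -0.033 under 75th percentile scaling and -0.040 to 0.72 with 1 left out. The sapje-like difference at 30 dpf was -0.11 with that age fitted alone, -0.58 in Cy5 samples and -0.47 to 0.45 with 1 left out.

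Over all probes, the calls for age were 64 in Cy3 and 63 in Cy5 samples, where fewer samples were fitted. Between cohorts at 5 dpf they were 4 (median scaling), 3 (75th percentile) and 0 (that age alone, Cy3, Cy5), and 3 to 18 with 1 sample left out, the 18 without wild type SLW replicate 2. Between cohorts at 30 dpf they were 42 (median scaling), 40 (75th percentile), 1 (spot median, no filter, the authors' table, shared array, that age alone) and 0 (Cy3, Cy5), and 1 to 4 with 1 left out, the 4 without wild type SLW replicate 8. For the difference of effects at 5 dpf they were 0 (cyclic loess, median, 75th percentile, within-array loess, the authors' table, that age alone, Cy3, Cy5), and 0 to 3 with 1 left out.

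The pairing by replicate number holds on the inferred arrays at 5 dpf and not at 30 dpf. Deviations of equal-numbered samples correlated at 0.209 and 0.115 at 5 dpf, where they shared an inferred array, and at -0.440 to -0.0458 at 30 dpf, where they did not. With the replicate block the age difference was 1.93 for miR-738 (adjusted p = 1.17e-05) and 1.22 for miR-739 (adjusted p = 0.0846), the sapje-like difference of miR-738 at 30 dpf was -0.086, and the calls over all probes were 97 for age, 1 between cohorts at 30 dpf and 2 for the difference of effects at 5 dpf. Over the 12 samples at 30 dpf the correlations of miR-738 with miR-23a (-0.24), let-7i (-0.037) and miR-15a (-0.59) turned negative.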
